A study of Mus musculus with 7 samples.

Results

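The 10 genes described here encode the testis members of the ADAM family, *Adam1a*, *Adam1b*, *Adam2*, *Adam3*, *Adam5*, *Adam18*, *Adam24*, *Adam29*, *Adam30* and *Adam32*. They were chosen by gene name, without use of their levels but with earlier results of these data known. The deposited testis table lists 19719 genes, and all 10 members passed the filter on low values. Sequencing covered the RNA of whole testes of 3 fl/Y males (labelled WT), which carry a floxed *Rlim* allele and no Cre, and of 4 cKO/Y Sox2-Cre males (labelled Rlim-KO, cKO/Y below), on a C57BL/6 background at 8 weeks of age. *Rlim* is an X-linked gene encoding an E3 ubiquitin ligase, and Sox2-Cre deletes it in the embryo proper, so that somatic cells and germline of the testis both lack it. The labels give 2 batches, in which batch 2 held fl/Y 1 and 2 and cKO/Y 1 and 2, and batch 1 held fl/Y 3 and cKO/Y 3 and 4. The comparison asked whether loss of *Rlim* was accompanied by a change in the RNA of these sperm surface proteins.

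ADAM proteins are membrane-anchored proteins with a metalloprotease-like domain and a disintegrin domain. Several are made only in male germ cells and are assembled in the endoplasmic reticulum into complexes that reach the sperm surface. Fertilin is a pair of an ADAM1 protein with ADAM2, and ADAM3 (cyritestin) is needed for sperm to pass from the uterus into the oviduct and to bind the zona pellucida. Mouse sperm that lack ADAM2 or chaperones such as calmegin also lose ADAM3.

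In active ADAM proteases the metalloprotease domain holds a zinc-binding motif, encoded by 33 bases, in which a histidine and a glutamate are followed by another histidine, a glycine and a last histidine at fixed distances. The sequences at this place are shown because they divide the 10 members into those with and without the motif. Capitals mark the histidine codons (CAT or CAC) and the glutamate codon (GAA or GAG) of the motif where they are present, and the sequences come from the coding strand of GENCODE M21 transcripts (GRCm38).
Adam1a: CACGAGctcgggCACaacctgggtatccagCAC
Adam1b: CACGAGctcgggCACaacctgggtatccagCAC
Adam24: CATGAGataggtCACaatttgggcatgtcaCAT
Adam30: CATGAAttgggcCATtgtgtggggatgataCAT
Adam29: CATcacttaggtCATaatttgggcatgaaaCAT
Adam2: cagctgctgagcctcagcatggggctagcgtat
Adam3: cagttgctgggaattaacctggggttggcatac
Adam5: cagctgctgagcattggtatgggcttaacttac
Adam18: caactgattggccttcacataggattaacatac
Adam32: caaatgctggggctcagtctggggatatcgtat

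The complete motif was present in 4 of 10 members (*Adam1a*, *Adam1b*, *Adam24* and *Adam30*), and in 45 of the 14912 listed genes with a coding sequence (0.302%). *Adam29* held all 3 histidine codons without the glutamate codon. At the aligned place, *Adam2*, *Adam3*, *Adam5*, *Adam18* and *Adam32* held 0 of the 3 histidine codons, and the aligned places of these 5 genes and of *Adam29* were found by aligning their translations to that of *Adam24*. A match or its absence describes these bases and is not a measure of protease activity.

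*Adam18*, *Adam3*, *Adam5* and *Adam32* lie next to each other on the minus strand of chromosome 8 of GRCm38. *Adam18* extends over chr8:24602246-24674755, *Adam3* over chr8:24677225-24725852, *Adam5* over chr8:24727093-24824369 and *Adam32* over chr8:24836140-24948804. The gaps between them were 2.469, 1.24 and 11.77 kb, and their longest coding transcripts had 20 to 22 exons. *Adam24* (chr8:40675077-40682199, plus strand) and *Adam29* (chr8:55870912-55906948, minus strand) lie farther along the same chromosome and had 2 exons each. *Adam2*, at chr14:66027329-66077733 on the minus strand, had 21 exons, and *Adam30*, at chr3:98160630-98164169 on the plus strand, had 1.

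**Figure D1:**
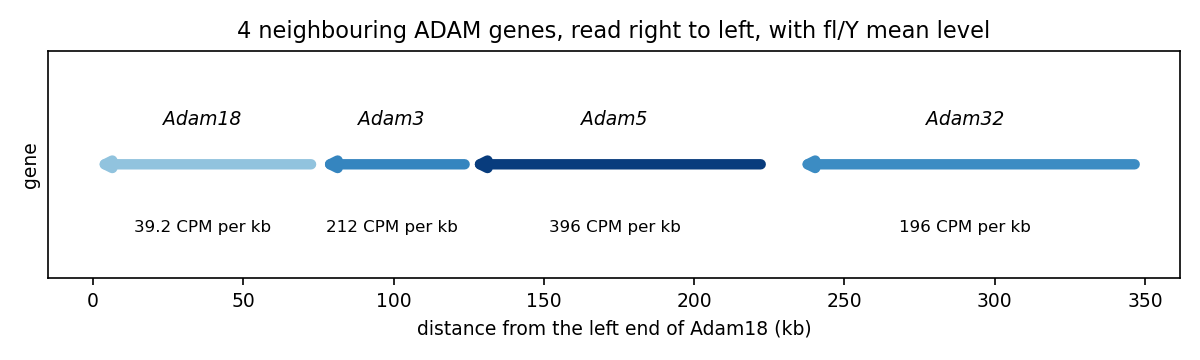
The 4 neighbouring genes drawn to scale, with distance in kb from the left end of Adam18 on the x axis, arrows pointing in the direction of transcription and the fl/Y mean level in CPM per kb of exon printed under each gene (darker blue for a higher level). Levels of these neighbours ran from 39.2 CPM per kb for Adam18 to 396 CPM per kb for Adam5.

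*Adam1b* (chr5:121500098-121503435) and *Adam1a* (chr5:121518576-121522071) are single-exon genes on the minus strand of chromosome 5, 15.14 kb apart. Their aligned codons were identical at 77.6% of coding bases, the highest value among the 45 pairs of members, ahead of *Adam24* with *Adam29* at 56.7%. Of the 35-base words of *Adam1b*, 33.2% also occurred in *Adam1a*, and 78.2% of those of *Adam1a* occurred in other genes, mostly in Gm42878, which was listed at 0 to 1.67 CPM. For *Adam1a* the words came from its model in GENCODE M21, which differs from the coordinates above, so that these shares describe that model. How such shared reads were assigned is not given in the sources used here, so the split between *Adam1a* and *Adam1b* is uncertain. Both also overlap *Tmem116* on the plus strand, which was at 7.81 to 11.3 CPM, and whether strand was used in counting is not given either. In GENCODE M21 *Adam1a* also overlaps Gm42878, *Mapkapk5* (0.997 to 4.51 CPM) and Gm15547 on the minus strand.

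Values are CPM, reads divided by a library size that the authors had scaled. The libraries held 2822168 to 8633399 reads in listed genes, and the members had between 95 reads (*Adam29*) and 11152 reads (*Adam5*) in a library. A count of 0 allows up to 3 reads, or 0.301 to 0.945 CPM, for counting error only, and every member was far above this. *Rlim* itself was at 99.5, 70.7 and 61.5 CPM in fl/Y and at 32.6, 35.7, 21.7 and 20.7 CPM in cKO/Y (log2 fold change -1.38, SE 0.16, adjusted p = 0.0087 in limma). No other gene passed an adjusted p of 0.05 between the genotypes, which makes 1 of 19400 genes tested (0.00515%). Nuclear ribosomal RNA took 19.3% of the reads of cKO/Y 1 against at most 4.60% elsewhere, and mitochondrial ribosomal RNA took 12.03 to 20.9% in batch 2 against 5.35 to 8.69% in batch 1. In bulk testis RNA, fewer cells of a type and less RNA per cell cannot be told apart. The study describes the libraries as biological replicates, and the labels do not name the animals.

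Levels between genes were compared per kb of exon. In fl/Y testes, *Adam5*, which encodes a protein found in sperm complexes with ADAM2 and ADAM3, had the highest level at 396 ± 61.2 CPM per kb (SD, n = 3), followed by *Adam3* at 212 ± 61.1, *Adam32* at 196 ± 15.1 and *Adam2* at 133 ± 21.5 CPM per kb. The remaining members were lower, with *Adam24* at 47.9 ± 5.13, *Adam18* at 39.2 ± 1.96, *Adam1a* at 30.2 ± 6.57, *Adam1b* at 29.3 ± 7.04, *Adam30* at 21.5 ± 1.25 and *Adam29* at 17.8 ± 3.42 CPM per kb. The range from lowest to highest was 22.2-fold.

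The order of the 10 means was the same in cKO/Y testes, from *Adam5* at 391 ± 86.1 to *Adam29* at 16.5 ± 8.48 CPM per kb (SD, n = 4). *Adam5* was the highest member in 7 of 7 libraries and *Adam29* the lowest in 6. Several neighbours in the order were not separated beyond their spread. In fl/Y the libraries of *Adam3* overlapped with those of *Adam32*, and from *Adam18* through *Adam1a*, *Adam1b* and *Adam30* to *Adam29* each member overlapped with the next. *Adam3* was above *Adam32* per kb in 4 of 7 libraries. *Adam5*, *Adam3*, *Adam32* and *Adam2* together made up 82.5 to 84.5% of the summed CPM of the members in every library. The members that lack all histidine codons of the zinc-binding motif thus held the 4 highest levels per kb, with *Adam18* at the sixth place.

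**Figure D2:**
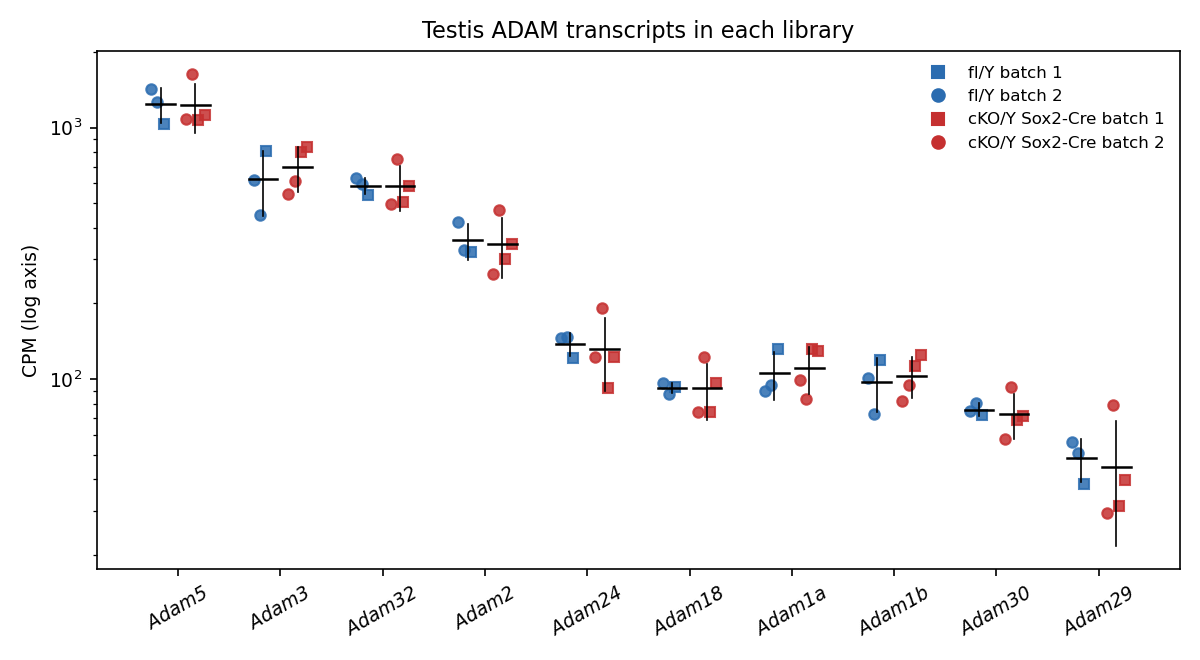
CPM of each member (log axis) in each library, blue for the 3 of fl/Y and red for the 4 of cKO/Y Sox2-Cre, where squares are batch 1 and circles batch 2, and black lines stand for the mean and SD of each genotype. Libraries of the genotypes overlap for all 10 members, and the red circle of cKO/Y 2 is the highest point for 7 of them.

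The testis ADAM RNAs showed no difference between the genotypes that passed the test. Of the 10 members, 0 passed an adjusted p of 0.05 in limma and 0 an unadjusted p of 0.05, where the latter was reached by 2.58% of all genes. With edgeR on the recovered reads 0 members had an unadjusted p under 0.05, against 2.21% of all genes. The libraries of fl/Y and cKO/Y overlapped for 10 of 10 members, while 2.92% of all genes had groups that did not overlap. For 4 of these members (*Adam1a*, *Adam1b*, *Adam3* and *Adam24*) the batches did not overlap, as for 23.6% of all genes. Since both batches held both genotypes, overlap of the genotypes was then fixed in advance and says nothing about *Rlim*. edgeR and DESeq2 on the recovered reads also gave 0 members at an adjusted p of 0.05. Log2 fold changes ran from -0.13 for *Adam29* to 0.09 for *Adam3*, with 4 above and 6 below 0 (51.2% of all genes were below 0) and a median of -0.02, beside a median of -0.006 over all genes tested. On the recovered reads *Adam29* was at -0.0093 in edgeR and at -0.0127 in DESeq2, and the lowest member there was *Adam30*, at -0.034 and -0.029.

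For the fertilin genes, *Adam1a*, whose protein pairs with ADAM2 within the cell, was at 89.8, 94.7 and 132 CPM in fl/Y 1, 2 and 3 and at 99.6, 83.7, 132 and 129 CPM in cKO/Y 1, 2, 3 and 4. *Adam1b*, the form that pairs with ADAM2 on the sperm surface, was at 100.9, 72.9 and 120 CPM in fl/Y and at 81.9, 94.7, 112 and 124 CPM in cKO/Y. In both genes the high values were those of fl/Y 3, cKO/Y 3 and cKO/Y 4, the 3 libraries of batch 1, and the genotypes overlapped. The fold of cKO/Y over fl/Y, from limma with the batch as a covariate, was 0.991 for *Adam1a* (95% interval 0.809 to 1.21) and 1.01 for *Adam1b* (0.808 to 1.27).

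*Adam2*, the common partner of both, was at 423, 326 and 321 CPM in fl/Y and at 263, 472, 299 and 346 CPM in cKO/Y. Its lowest and highest values were both in cKO/Y, in replicates 1 and 2. The fold was 0.970 (95% interval 0.736 to 1.28).

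*Adam3* was at 618, 448 and 808 CPM in fl/Y and at 544, 614, 797 and 840 CPM in cKO/Y. As for the ADAM1 genes, the 3 libraries of batch 1 were the highest, in either genotype. Its fold was 1.06 (95% interval 0.847 to 1.33), or a log2 fold change of 0.09 (SE 0.15).

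Its neighbour *Adam5* was at 1419, 1259 and 1038 CPM in fl/Y and at 1085, 1628, 1067 and 1119 CPM in cKO/Y. *Adam32* was at 629, 594 and 539 CPM in fl/Y and at 497, 750, 507 and 586 CPM in cKO/Y. *Adam18* was at 96.8, 87.6 and 92.8 CPM in fl/Y and at 73.8, 123, 74.0 and 97.1 CPM in cKO/Y. In these 3 genes cKO/Y 2 was above every other library, while the other cKO/Y libraries were within or below the range of fl/Y or, for *Adam18*, just above it. The folds were 1.02 for *Adam5* (95% interval 0.792 to 1.31), 1.00 for *Adam32* (0.790 to 1.27) and 0.984 for *Adam18* (0.755 to 1.28).

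*Adam24*, which encodes the sperm protease testase 1, was at 146, 148 and 121 CPM in fl/Y and at 122, 192, 92.6 and 122 CPM in cKO/Y. The intron-poor gene *Adam29* was at 56.3, 51.1 and 38.2 CPM in fl/Y and at 29.5, 78.9, 31.5 and 39.8 CPM in cKO/Y. *Adam30* was at 74.9, 80.6 and 71.9 CPM in fl/Y and at 58.0, 93.1, 68.7 and 71.3 CPM in cKO/Y. Again cKO/Y 2 was the highest library in each, and for *Adam29* it was 2.68 times the lowest, cKO/Y 1. Folds were 0.974 for *Adam24* (95% interval 0.756 to 1.25), 0.912 for *Adam29* (0.631 to 1.32) and 0.957 for *Adam30* (0.748 to 1.22), with the widest interval for *Adam29*.

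**Figure D3:**
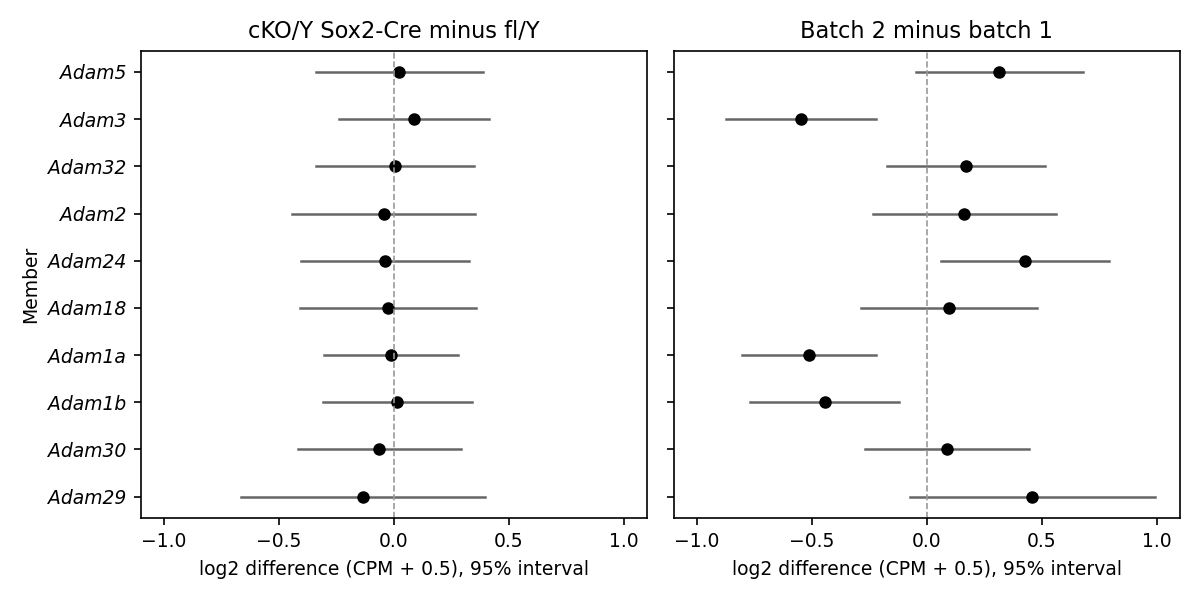
Log2 differences of the 10 members on the log2(CPM + 0.5) scale from limma, with the estimate as a point and the 95% interval as a line, for cKO/Y Sox2-Cre minus fl/Y (left) and batch 2 minus batch 1 (right). All 10 intervals on the left include 0, while on the right those of Adam3, Adam1a and Adam1b lie below 0 and that of Adam24 above it.

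Extreme values fell often in cKO/Y 1 and cKO/Y 2. cKO/Y 2 was the highest library for 7 of 10 members, where 28.2% of the 5356 genes with a mean above 30 CPM were highest there. cKO/Y 1, the library rich in ribosomal RNA, was the lowest for 5 of 10 members, against 15.4% of these genes. This was not particular to the members. The summed CPM of the 10 further testis ADAM genes described below was also highest in cKO/Y 2 (456) and lowest in cKO/Y 1 (296). The median log2 fold change of the members was -0.18 without cKO/Y 2 and 0.13 without cKO/Y 1, and 0 members passed an adjusted p of 0.05 in limma in either case. Without cKO/Y 2 an unadjusted p under 0.05 in limma was reached by 1 member, *Adam29* at a log2 fold change of -0.48. Over all 19400 genes tested, 613 higher and 605 lower genes reached it there. Without cKO/Y 1 it was reached by 0 members, beside 347 higher and 373 lower genes. The sign of the median of the members was not fixed by the data. This median was also above 0 without fl/Y 1 (0.011), without cKO/Y 3 (0.035) and with edgeR (0.0023) or DESeq2 (0.0072) on the recovered reads. Summed Sertoli cell markers (12 of 12 genes listed, 0 at 0 in any library) were at 696 CPM in cKO/Y 1 and 385 CPM in cKO/Y 2. The other libraries were at 383 (fl/Y 1) to 671 CPM. Summed germ cell markers differed between cKO/Y 1 and cKO/Y 2 as well. They were at 109 and 60.8 CPM for spermatogonia and 3863 and 5009 CPM for spermatocytes. For round spermatids they were at 1054 and 1325 CPM, and for elongating spermatids at 10612 and 10124 CPM. The part of these markers in the spread was not tested.

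The members did not vary together across the 7 libraries. *Adam3*, *Adam1a* and *Adam1b* were lower in each of the 4 libraries of batch 2 than in each of the 3 of batch 1, while the estimates of the other 7 members were above 0, that is higher in batch 2, of which those of *Adam2*, *Adam18*, *Adam30* and *Adam32* were below 0 once values were rescaled to the total of the listed genes. That rescaling moved the median batch difference of all genes by -0.22 on the log2 scale, to -0.24, and the 7 members, at -0.16 to 0.22, stayed above this median while *Adam3*, *Adam1a* and *Adam1b*, at -0.79 to -0.69, stayed below it. This division was seen in the values first and the limma estimates below describe it. In the same fit, the difference of batch 2 minus batch 1 was -0.55 on the log2 scale for *Adam3* (SE 0.15, adjusted p = 0.0452 in limma), -0.51 for *Adam1a* (SE 0.14, adjusted p = 0.0371) and -0.45 for *Adam1b* (SE 0.15, adjusted p = 0.0871). It was 0.42 for *Adam24* (adjusted p = 0.140), 0.46 for *Adam29* (adjusted p = 0.273) and 0.32 for *Adam5* (adjusted p = 0.267). The remaining members were nearer 0, with *Adam32* at 0.17 (adjusted p = 0.553 in limma) and *Adam2* at 0.16 (adjusted p = 0.631). *Adam18* was at 0.096 (adjusted p = 0.780) and *Adam30* at 0.087 (adjusted p = 0.785). Thus 2 of 10 members passed, both lower in batch 2, where 3.6% of all genes were called lower and 7.06% in either direction. The libraries of the batches did not overlap for 4 of 10 members, beside 23.6% of all genes. For 3 of these 4 batch 2 was lower, beside 12.1% of all genes. When libraries were left out in turn, the adjusted p in limma of *Adam3* was 0.0657 without fl/Y 1, 0.0734 without fl/Y 2, 0.261 without fl/Y 3, 0.142 without cKO/Y 3 and 0.1385 without cKO/Y 4. That of *Adam1a* was 0.101 without fl/Y 1, 0.197 without fl/Y 3, 0.0893 without cKO/Y 2, 0.154 without cKO/Y 3 and 0.121 without cKO/Y 4. In these cases the difference itself was -0.62 to -0.46 for *Adam3* and -0.52 to -0.45 for *Adam1a* on the log2 scale, close to the values with all libraries. Over all genes, 1370 passed between the batches with 7 libraries and 73 to 3030 with 1 left out. The calls of members that were made without cKO/Y 1 numbered 5, with *Adam29*, *Adam24* and *Adam5* higher in batch 2. That setting is 1 of those in the range of 73 to 3030, and the 5 calls are not read as a trait of the members.

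**Figure D4:**
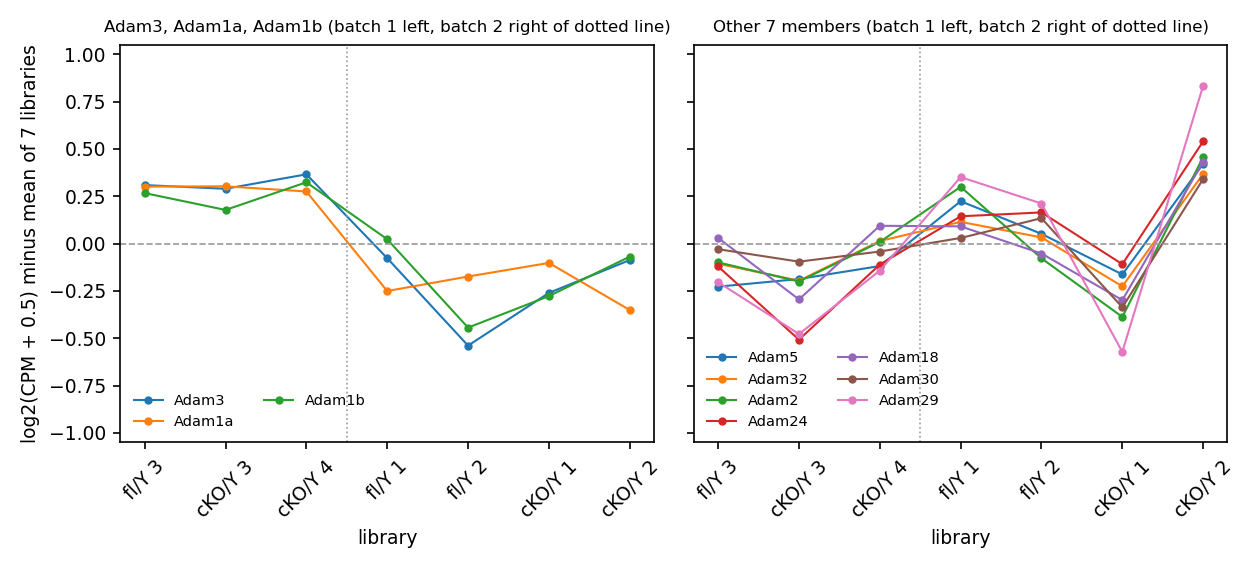
Log2(CPM + 0.5) of each member minus its mean over the 7 libraries (y axis) for each library (x axis), with batch 1 left and batch 2 right of the dotted line. Adam3, Adam1a and Adam1b (left panel) are above 0 in all 3 libraries of batch 1, and the other 7 members (right panel) all peak in cKO/Y 2.

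The neighbours *Adam3* and *Adam5* fell on either side of this division, a pair named after its values were seen. The CPM of *Adam3* over that of *Adam5* was 0.778, 0.747 and 0.751 in fl/Y 3, cKO/Y 3 and cKO/Y 4 of batch 1, and 0.435, 0.356, 0.501 and 0.377 in fl/Y 1, fl/Y 2, cKO/Y 1 and cKO/Y 2 of batch 2. The ratio was close within batch 1 in both genotypes and lower in all of batch 2. The ratio of *Adam32* to *Adam5*, genes of the same chromosomal run, was 0.475 to 0.524 in batch 1 and 0.443 to 0.472 in batch 2, so that it too separated the batches, by a smaller step. Ratios within a library do not depend on its scaling.

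**Figure D5:**
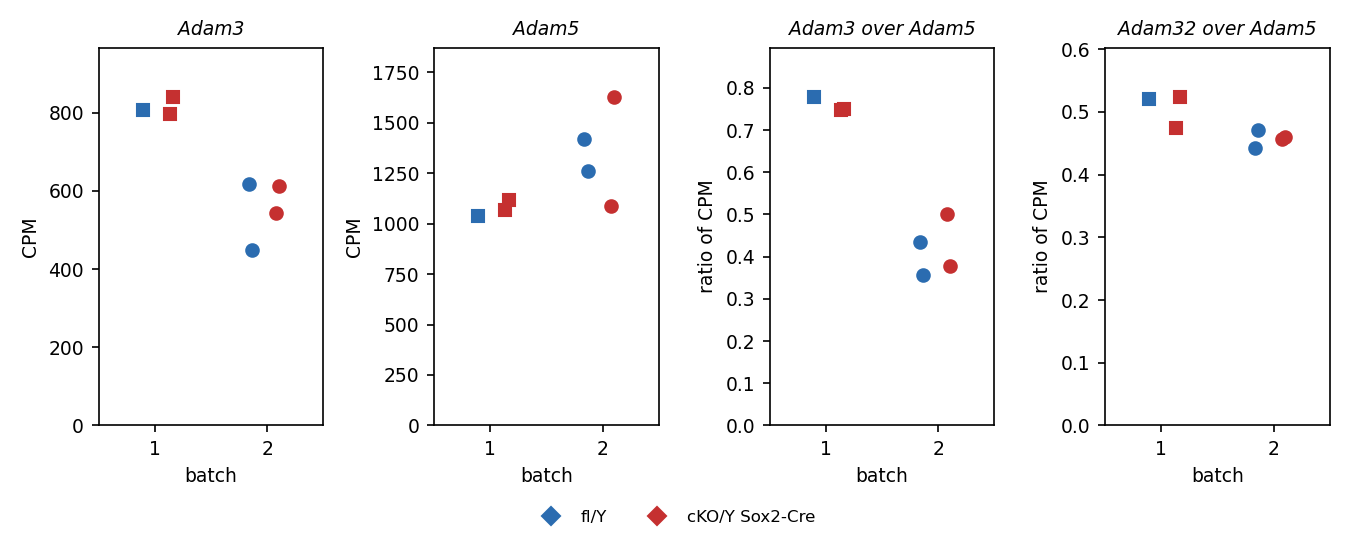
CPM of Adam3 and of Adam5 and the ratios of Adam3 and of Adam32 to Adam5 in each library (y axes from 0), by batch (x axis) and genotype (blue fl/Y, red cKO/Y Sox2-Cre). The ratio of Adam3 to Adam5 is 0.747 to 0.778 in batch 1 and 0.356 to 0.501 in batch 2, in both genotypes.

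Markers of germ cell stages differed between the batches as well. In the list for spermatocytes, cells in meiosis, 6 of 12 genes passed an adjusted p of 0.05 in limma as higher in batch 2 (3.46% of all genes), with summed levels of 3863 to 5009 CPM in batch 2 and 3514 to 3774 CPM in batch 1. In the list for elongating spermatids, the last haploid stage, 4 of 12 genes were lower in batch 2 (3.6% of all genes). Their list had sums of 10124 to 11137 CPM in batch 2 against 13107 to 14918 CPM in batch 1. This list was not uniform, since at an unadjusted p under 0.05 in limma 7 of its genes were lower and 2 higher in batch 2. Over all 19400 genes tested, 2496 were lower and 2318 higher at that threshold. In the list for round spermatids 1 of 12 genes was lower and 0 were higher, and their sums overlapped. None of these markers was at 0 in any library. Between the genotypes 0 of 12 genes of each of these 3 lists passed, and the sums overlapped. For spermatocytes and elongating spermatids the sums separated the batches, so that overlap of the genotypes was fixed in advance there. Between the batches, 1 of 8 Leydig, 1 of 7 myoid and 1 of 5 endothelial cell markers also passed (7.06% of all genes), named after their values were seen. They were *Insl3* at -4.01, *Tagln* at 2.02 and *Vwf* at -0.91 (batch 2 minus batch 1, log2 scale). The medians of these lists were nearer 0, at -0.11 for Leydig, 0.058 for myoid and -0.091 for endothelial cell markers. Summed Leydig and summed myoid markers overlapped between the batches. The summed endothelial markers were at 44.8 to 53.9 CPM in batch 1 and 31.1 to 42.5 CPM in batch 2. Whether these markers bear on the division of the ADAM genes was not tested.

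Genes around the 10 members were compared with fixed lists. Of 10 further testis ADAM genes, all tested in limma, 0 passed an adjusted and 0 an unadjusted p of 0.05 between the genotypes, with 2 estimates above and 8 below 0 and a median log2 fold change of -0.05. The smallest p among them was that of *Adam26a*, with 36.8, 43.4 and 44.6 CPM in fl/Y and 24.8, 45.2, 34.3 and 36.3 CPM in cKO/Y (log2 fold change -0.28, SE 0.19), followed by *Adam21* (-0.11, SE 0.17) and *Adam25* (-0.10, SE 0.20). Their libraries overlapped between the genotypes. Between the batches 0 of the 10 genes passed an adjusted p of 0.05 in limma (7.06% of all genes) and 0 an unadjusted p of 0.05. The median difference of batch 2 minus batch 1 was -0.053 on the log2 scale.

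Of 12 ADAM genes expressed in many tissues, 11 were in the table and tested in limma, where 0 passed an adjusted and 1 an unadjusted p of 0.05. *Adam12*, which is known from fusing muscle cells, was at 3.72, 3.63 and 7.16 CPM in fl/Y and at 2.79, 1.59, 2.83 and 4.32 CPM in cKO/Y (log2 fold change -0.78, SE 0.30, unadjusted p = 0.0193 and adjusted p = 1.0 in limma). Within each batch every fl/Y library was above every cKO/Y library. With the batches pooled, cKO/Y 4 of batch 1 lay within the fl/Y range, above the fl/Y libraries of batch 2. *Adam23*, a member without protease activity that is known from neurons, had a log2 fold change of 0.24 (SE 0.24), and *Adam33* was listed at 0 to 1.57 CPM, near the limit of detection.

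Of 16 genes known to act in the folding, processing or surface delivery of ADAM2 and ADAM3, all were tested in limma and 0 passed an adjusted or an unadjusted p of 0.05 between the genotypes, with 5 estimates above and 11 below 0 and a median log2 fold change of -0.06. *Ly6k*, a GPI-anchored protein without which sperm lack ADAM3, was at 51.7, 56.3 and 39.8 CPM in fl/Y and at 42.2, 40.3, 30.2 and 39.1 CPM in cKO/Y. Its values in fl/Y 1 and 2 were the highest, while fl/Y 3 lay among those of cKO/Y (log2 fold change -0.31, SE 0.16, unadjusted p = 0.0643 in limma). All libraries of batch 1, which holds fl/Y 3, were below those of batch 2. Within batch 1, fl/Y 3 was above cKO/Y 3 and just above cKO/Y 4. *Prss37*, a protease-like protein needed for ADAM3 maturation, had a log2 fold change of -0.21 (SE 0.17) and *Pmis2* one of -0.17 (SE 0.16). Between the batches 3 of the 16 genes passed in limma, against 7.06% of all genes, and they are named after their values were seen. *Clgn*, which encodes the chaperone calmegin, was higher in batch 2 by 0.63 (SE 0.17, adjusted p = 0.0364) and *Cmtm2a* by 0.62 (SE 0.18, adjusted p = 0.0473), while for the testis serine protease gene *Prss55* batch 2 minus batch 1 was -0.62 (SE 0.15, adjusted p = 0.0282) on the log2 scale. Of 8 epididymis marker genes, 0 were in the table.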

How the data were processed

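RNA of total testis was analysed in 7 libraries, 3 fl/Y and 4 cKO/Y. HISAT2 2.1.0, featureCounts and edgeR, with the GRCm38 build, are named in the submitters' processing notes. TopHat and HTSeq are named in the study's methods. The deposited signal values are CPM, scaled by the authors in a way that the table does not describe. All values were whole multiples of 1 read to within 0.001 of a read, so that 100% of the values gave whole reads. The 19400 of 19719 genes that exceeded 1 CPM in 3 or more libraries were tested with limma 3.58.1 in R 4.3.3 on log2(CPM + 0.5), with genotype and the batch of the labels as terms, and two-sided p-values were adjusted by Benjamini-Hochberg over all genes tested (threshold 0.05). Fold changes on this scale understate those of low genes. Alternatives were edgeR 4.0.16 and DESeq2 1.42.0 on the recovered reads, other pseudocounts (0.1 and 1 CPM), filters, scalings, batch terms, a replicate block and each library left out.

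Coordinates of genes are those of the table, and 9 of 10 members have the same ones in GENCODE M21, with *Adam1a* as the exception. Exon lengths, coding sequences and shared 35-base words came from GENCODE M21, and codons were aligned with Biopython 1.88. The text names the 10 members, *Rlim*, genes of the 3 lists of other testis ADAM genes, broadly expressed ADAM genes and ADAM3 maturation genes with an unadjusted p under 0.05, and the 3 genes of each list with the smallest p. Members and lists were chosen with earlier results of these data known. The batch comparison, the ratios, *Clgn*, *Cmtm2a* and *Prss55* were added after the values were seen.

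Equal replicate numbers in both genotypes were not used as a pairing. Lists of spermatogonia, Leydig, myoid, macrophage, endothelial and red blood cell markers were also read out, and 0 of their genes passed an adjusted p of 0.05 between the genotypes.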

Additional observations from a re-analysis of the deposited data

Results flagged for a closer look

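*Adam5* in cKO/Y testes was marked because 1 library lay far from the other 3. cKO/Y 2 was at 1628 CPM and the others at 1085, 1067 and 1119 CPM, so that the gap to the nearest library was 0.907 of the range of the group. Of 11 groups of 4 libraries examined in this way, for the 10 members and *Rlim* in cKO/Y, 1 was marked, and chance marks about 1 in 20 groups.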

How the results depend on the processing

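Between the genotypes, the count of members past an adjusted p of 0.05 in limma was 0 under each of the 19 alternatives. Over all genes the count was 1, which became 0 without a batch term, 0 within batch 2, 28 within batch 1, where the single fl/Y library was assumed to vary like the others, and 0 to 3 when libraries were left out in turn. Directions of single members were not stable. On the log2 scale, without a batch term *Adam5* was at -0.0276, *Adam32* at -0.0236 and *Adam1a* at 0.0723. Rescaled to the total of the listed genes, *Adam32* was at -0.002. *Adam18* was at 0.0162 in edgeR and at 0.0203 in DESeq2. Within batch 2, *Adam5* was at -0.0082, *Adam32* at -0.0024, *Adam18* at 0.0474 and *Adam24* at 0.0614, and within batch 1 *Adam2* was at 0.0034 and *Adam1b* at -0.016. The causes were not tested.

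With a replicate block in place of the batch, 0 genes passed in all and 0 members passed, the call of *Rlim* being the one lost, and *Adam32* was at -0.0314 and *Adam1b* at -0.0048. The numbers were not taken as pairs, since the deviations of same-numbered libraries correlated at 0.101, 0.066 and 0.392, and not every library correlated best with its own number.

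When libraries were left out in turn, the log2 fold changes ran from -0.2241 to 0.141 for *Adam18*, -0.0754 to 0.049 for *Adam1a*, -0.106 to 0.1274 for *Adam1b*, -0.2475 to 0.1749 for *Adam2*, -0.2258 to 0.0988 for *Adam24*, -0.4802 to 0.223 for *Adam29*, -0.039 to 0.1919 for *Adam3*, -0.2288 to 0.1101 for *Adam30*, -0.1421 to 0.155 for *Adam32* and -0.1129 to 0.1794 for *Adam5*.

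Between the batches, 2 members passed with limma, 2 with edgeR and 1 with median-of-ratios scaling. Over all genes, 1370, 1415 and 1350 passed in these settings. The count of members was 3 after rescaling to the total, 3 without a genotype term and 0 to 5 with libraries left out in turn. After rescaling to the total the batch difference was -0.1575 for *Adam30*, -0.0769 for *Adam32*, -0.1492 for *Adam18* and -0.0837 for *Adam2*. With libraries left out in turn it ran from -0.1044 to 0.2606 for *Adam18*, -0.0408 to 0.3816 for *Adam2* and -0.0783 to 0.2606 for *Adam30*. *Adam29* had the fewest reads of the members, as few as 95 in a library.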
